A study of Rattus norvegicus with 6 samples.

Results

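The genes described here make, break down and read cyclic AMP, and they were followed in INS-1, a rat insulinoma line that secretes insulin. They were chosen by symbol among the named rows of the deposited count table. The symbols taken were those of the numbered adenylyl cyclases (Adcy), the numbered phosphodiesterases (Pde), the subunits of protein kinase A (PKA; Prkac and Prkar), the numbered A-kinase anchoring proteins (Akap), Creb1, Creb3 and Creb5, the coactivators Crtc1 to Crtc3, and the numbered Rap exchange factors (Rapgef). All rows of a gene were added up, and a gene needed at least 10 counts over the 6 libraries. This gave 62 of the 21553 genes in the table, and 6 further genes with a matching symbol had fewer counts (Adcy7, Akap4, Akap14, Pde6b, Pde6c and Pde6g).

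RNA sequencing compared INS-SMA cells (n = 3), made with a lentivirus to overexpress alpha smooth muscle actin (α-SMA), with INS-MOCK cells (n = 3). The labels give the genotype of INS-SMA as SMA overexpression and that of INS-MOCK as wild type. All 6 libraries came from the same cell line, and the labels do not say whether INS-MOCK cells received a lentivirus or whether either population was a single clone. The series calls the 3 libraries of a group biological replicates.

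Cyclic AMP is made from ATP by adenylyl cyclases, most of them at the plasma membrane under the control of stimulatory and inhibitory G proteins, and it is removed by phosphodiesterases. It binds the regulatory subunits of PKA, which then release the catalytic subunits, and it also activates the exchange factors EPAC1 and EPAC2, encoded by Rapgef3 and Rapgef4. In beta cells cyclic AMP raised by incretin hormones amplifies insulin release, and PKA acts in the nucleus through CREB and its CRTC coactivators.

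The INS-SMA libraries held 24719503 to 39608609 counts and the INS-MOCK libraries 34471794 to 37466920. Rows without a gene name held 35.8% to 36.7% of the counts in INS-SMA and 32.7% to 33.0% in INS-MOCK, so part of a gene's reads can be missing from its value. The human ACTA2 sequence, which encodes α-SMA, had 941093 to 1141322 counts in INS-SMA libraries and 103 to 167 in INS-MOCK libraries. Beta cell markers were present in both groups, and 6 of 8 fell in INS-SMA while 0 rose (27% and 28.1% of all genes). Their summed level was 3024 to 4094 CPM (normalised read counts scaled to library size) in INS-SMA and 31975 to 34933 CPM in INS-MOCK, and Ins1 alone was at 1306 to 1664 CPM in INS-SMA and 21966 to 23701 CPM in INS-MOCK. Of the genes listed as markers of other cell types, summed levels were 11.7 to 13.2 CPM in INS-SMA and 13.7 to 16.9 CPM in INS-MOCK for fibroblast and mesenchymal genes (6 of 7 among the named rows). Most of that sum was Pdgfra, which fell to 8.24 ± 0.17 CPM in INS-SMA, against 15.3 ± 1.77 CPM in INS-MOCK (SD, n = 3). Col3a1 rose to 2.84 ± 0.79 CPM in INS-SMA, against 0.070 ± 0.063 CPM in INS-MOCK, and Col1a1, Col1a2, Dcn and Lum, too low to test, had higher means in INS-SMA. Immune genes (3 of 5) summed to 2.41 to 3.42 CPM in INS-SMA and 0.124 to 1.21 CPM in INS-MOCK, and endothelial genes (3 of 4) to 0.481 to 1.44 CPM in INS-SMA and 0 to 0.359 CPM in INS-MOCK. Acinar and duct genes (2 of 5) summed to 0.544 to 0.918 CPM in INS-SMA and 0.206 to 0.493 CPM in INS-MOCK. Ptprc (CD45), Col1a2, Dcn, Lum, Cdh5 and Prss1 were at 0 in each INS-MOCK library. In INS-SMA Ptprc had 31, 34 and 29 counts, Dcn 7, 2 and 8, and Lum 5, 10 and 12. Col1a2 (2, 2 and 0), Cdh5 (4, 2 and 0) and Prss1 (1, 4 and 0) had fewer still. Cd68 and Kdr had higher means in INS-MOCK. Cd68 had 5, 3 and 13 counts in INS-SMA and 3, 20 and 16 in INS-MOCK, and Kdr 0, 0 and 5 against 0, 5 and 5. Of the pair of alpha and delta cell genes, 1 of 2 was among the named rows, and this was Gcg, at 24.4 to 30.1 CPM in INS-SMA and 692 to 749 CPM in INS-MOCK. The part of these shifts in the results below was not tested. In bulk RNA, fewer cells expressing a gene and less RNA per cell cannot be told apart.

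Among the 62 genes 59 passed the low-count filter, and Akap7, Akap9 and Pde6a did not. In edgeR's quasi-likelihood test 20 of the 59 were higher in INS-SMA at an adjusted p under 0.05, 12 were lower and 27 did not pass. Over all 13363 tested genes 28.1% were called higher and 27% lower, 55.1% in all, so the share of 54.2% among the cyclic AMP genes was close to that of the table. At least 2-fold changes were called for 10 higher and 6 lower members, beside 28% of all genes (15.6% higher and 12.5% lower). The groups did not overlap in 22 members that were higher and 14 that were lower in INS-SMA, where the shares over all genes were 33.5% and 31.9%, or 65.3% together. The median log2 fold change was 0.14 over the 59 members and 0.03 over all tested genes. When each gene was measured by its most abundant transcript row in place of the sum, 11 members were called higher and 10 lower. Calls over all genes were also fewer there, at 2945 higher and 2876 lower of 13255 tested.

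**Figure D1:**
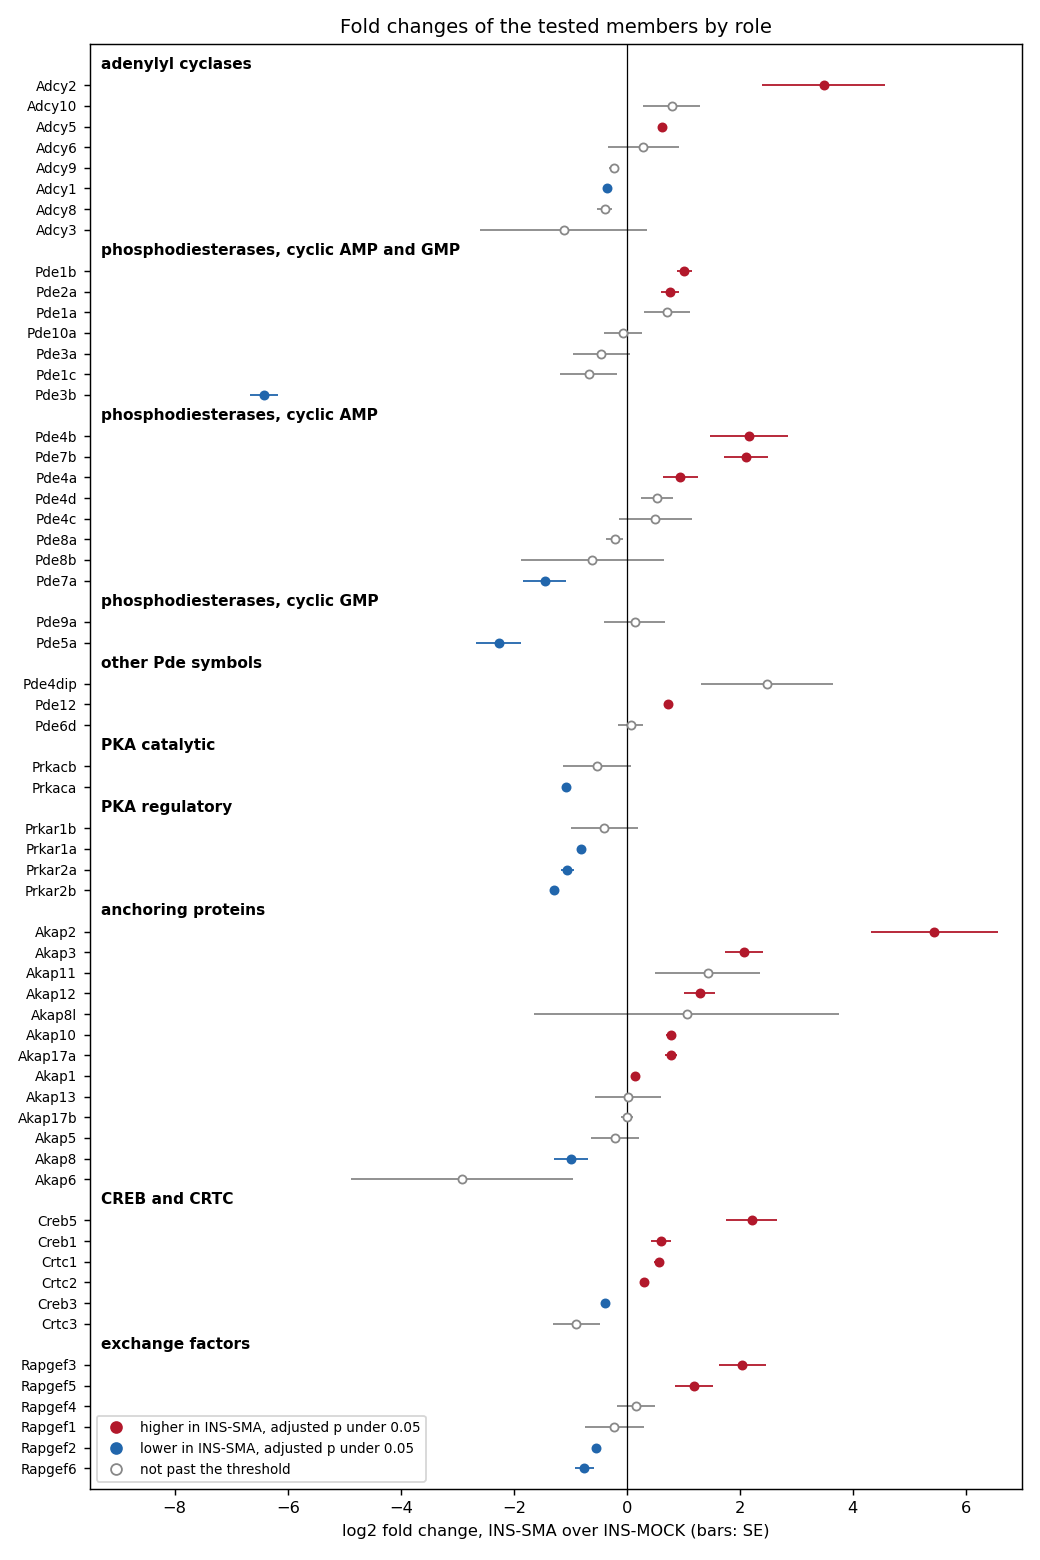
Log2 fold changes of the 59 tested members (x axis, INS-SMA over INS-MOCK, bars are SE), grouped by role down the page. Red points passed an adjusted p of 0.05 as higher (20), blue as lower (12), and open grey points did not pass (27); Pde3b lies farthest to the left at -6.41 and Akap2 farthest to the right at 5.44.

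Of 6 tested PKA subunit genes 4 fell and 0 rose, beside 27% and 28.1% of all tested genes. The 4 were the catalytic subunit gene Prkaca and the regulatory subunit genes Prkar1a, Prkar2a and Prkar2b, with falls of 1.75-fold to 2.44-fold. These 4 calls held under every alternative that was run. Prkar2b encodes the type II beta regulatory subunit, common in neurons and endocrine cells. It was at 29.0, 29.5 and 30.9 CPM in INS-SMA, against 72.1, 74.4 and 71.9 CPM in INS-MOCK (log2 fold change -1.29, SE 0.05, adjusted p = 2.02e-05 in edgeR's test). Replicates were close together and the groups did not overlap. Prkaca, the main catalytic subunit gene in most tissues, was at 51.4, 53.0 and 49.2 CPM in INS-SMA and at 102, 105 and 117 CPM in INS-MOCK (log2 fold change -1.08, SE 0.07, edgeR adjusted p = 8.23e-05). Prkar2a, which encodes the type II alpha regulatory subunit, was at 25.4, 27.3 and 32.5 CPM in INS-SMA and at 64.8, 54.4 and 57.5 CPM in INS-MOCK (-1.05, SE 0.12, adjusted p = 8.39e-04). Every INS-SMA library lay below every INS-MOCK library for both genes. Prkar1a, the type I alpha subunit gene, was at 75.3, 71.6 and 84.0 CPM in INS-SMA and at 128, 132 and 143 CPM in INS-MOCK (-0.80, SE 0.08, adjusted p = 4.17e-04).

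The other two subunit genes did not pass, and in each the sign turned when 1 library was left out. Prkar1b, the type I beta subunit gene, was at 81.4, 84.0 and 16.3 CPM in INS-SMA and at 80.8, 74.5 and 84.2 CPM in INS-MOCK. The log2 fold change of -0.40 (edgeR adjusted p = 0.606) became 0.05 without INS-SMA replicate 3, the low library. Prkacb, which encodes a second catalytic subunit, was at 4.27, 2.39 and 3.58 CPM in INS-SMA and at 2.48, 2.82 and 9.40 CPM in INS-MOCK. Its value of -0.52 (adjusted p = 0.505) became 0.37 without INS-MOCK replicate 3. In the deposited table Prkaca lies on chromosome 19 (25095089 to 25118860, plus strand), Prkar1a on chromosome 10 (97940705 to 97957336, plus), Prkar2a on chromosome 8 (117486083 to 117546370, plus) and Prkar2b on chromosome 6 (51265515 to 51356383, minus), and none overlaps another named gene. The only rat build in the submitters' processing notes is rn6.

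**Figure D2:**
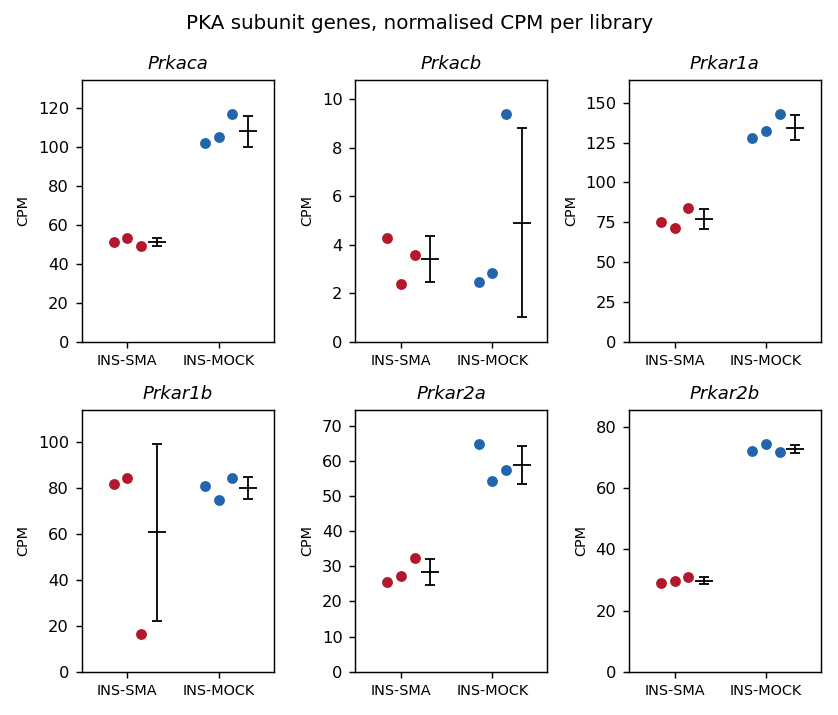
Normalised CPM (y axis, from 0) of the 6 PKA subunit genes in each library, INS-SMA on the left and INS-MOCK on the right; the black marks are mean and SD (n = 3). INS-SMA points lie below INS-MOCK points in Prkaca, Prkar1a, Prkar2a and Prkar2b, while a single library stands apart in Prkacb and Prkar1b.

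Promoter sequences of subunits that fell together are shown with the letters of the cyclic AMP response element, to which CREB binds, since RefSeq has windows for 48 of the 62 genes (build GRCr8, 250 bases before to 50 after the start site). Prkar2a and Pde3b are not among them. The motifs searched were TGACGTCA, which reads the same on both strands, and its core TGACG on either strand, which any TGACGTCA also holds. The windows are those of Prkaca (chr19:41083140-41083439, minus strand), Prkar1a (chr10:95120287-95120586, plus) and Prkar2b (chr6:54381362-54381661, minus). That of Akap17a (chr12:21428198-21428497, minus), an anchoring protein gene that rose, is shown as the 1 member with the whole TGACGTCA. Each is given 5′ to 3′ on the gene's strand in GRCr8, with motif letters in capitals. Prkaca is on the minus strand there but on the plus strand in the deposited table, a difference that was not examined.
Prkaca: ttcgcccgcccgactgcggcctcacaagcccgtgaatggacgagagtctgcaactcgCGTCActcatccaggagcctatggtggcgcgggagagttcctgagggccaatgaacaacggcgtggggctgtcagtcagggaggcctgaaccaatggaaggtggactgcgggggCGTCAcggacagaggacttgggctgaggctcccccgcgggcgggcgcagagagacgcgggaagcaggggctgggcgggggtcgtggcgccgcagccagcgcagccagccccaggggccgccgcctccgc
Prkar1a: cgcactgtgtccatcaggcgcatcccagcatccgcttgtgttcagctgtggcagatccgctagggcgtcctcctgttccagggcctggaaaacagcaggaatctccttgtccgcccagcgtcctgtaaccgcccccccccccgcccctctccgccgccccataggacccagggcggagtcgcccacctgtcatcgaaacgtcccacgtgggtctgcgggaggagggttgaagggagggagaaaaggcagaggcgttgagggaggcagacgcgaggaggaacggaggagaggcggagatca
Prkar2b: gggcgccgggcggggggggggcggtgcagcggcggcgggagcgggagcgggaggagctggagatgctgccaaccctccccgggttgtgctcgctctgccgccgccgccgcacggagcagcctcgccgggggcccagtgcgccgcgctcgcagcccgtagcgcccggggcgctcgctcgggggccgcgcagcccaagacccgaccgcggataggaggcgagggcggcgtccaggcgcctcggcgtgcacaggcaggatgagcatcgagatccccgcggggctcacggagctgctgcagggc
Akap17a: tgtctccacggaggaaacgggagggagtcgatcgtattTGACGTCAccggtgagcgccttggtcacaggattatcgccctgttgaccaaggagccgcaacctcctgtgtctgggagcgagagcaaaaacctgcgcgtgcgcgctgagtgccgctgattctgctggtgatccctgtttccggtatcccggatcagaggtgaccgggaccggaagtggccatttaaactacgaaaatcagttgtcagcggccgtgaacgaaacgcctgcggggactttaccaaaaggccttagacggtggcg
Prkaca holds the core on the other strand (CGTCA), beginning 193 and 79 bases before the start site, and these letters are not in the windows of Prkar1a and Prkar2b. Over all 33469 windows of this length 1.83% hold TGACGTCA and 21.2% hold the core. Of the 62 windows of the matched members, some of which have several start sites, 1.61% and 24.2% do, close to the shares of the table. By gene the core was in 4 of 17 matched and tested members that rose, 1 of 8 that fell and 8 of 20 that did not pass. A gene was counted here if any of its windows held the core. The share by gene over the whole genome was not computed, so these counts have no matching background.

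Phosphodiesterases that hydrolyse cyclic AMP changed in both directions, with 5 of 15 tested genes higher and 2 lower. Of all tested genes 28.1% were called higher and 27% lower. The largest change among the 59 members was the fall of Pde3b, which encodes a phosphodiesterase activated by insulin and inhibited by cyclic GMP, and which is known in beta cells for limiting cyclic AMP and insulin release. Pde3b (chromosome 1, 183892841 to 184078071, plus strand) was at 0.421, 0.642 and 0.739 CPM in INS-SMA, against 57.7, 52.8 and 46.5 CPM in INS-MOCK. These values rest on 7, 14 and 19 counts in INS-SMA and on 1398, 1177 and 1087 counts in INS-MOCK, all in 1 transcript row. The level was 85.3-fold lower in INS-SMA (log2 fold change -6.41, SE 0.25, edgeR adjusted p = 1.68e-05), and it lay between -6.59 and -6.23 with any 1 library left out. Its paralogue Pde3a, expressed mainly in heart and vessels, was at 0.233 to 0.780 CPM in INS-SMA and 0.493 to 0.702 CPM in INS-MOCK and did not pass (-0.45, adjusted p = 0.494).

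Among the calcium- and calmodulin-activated enzymes, Pde1b rose to 19.3, 16.7 and 17.1 CPM in INS-SMA, against 8.01, 9.77 and 8.46 CPM in INS-MOCK (log2 fold change 1.02, SE 0.13, edgeR adjusted p = 1.46e-03). Pde1a (0.71, adjusted p = 0.198) and Pde1c (-0.68, adjusted p = 0.306) did not pass, although Pde1a did without INS-MOCK replicate 1 (1.20, adjusted p = 0.0342). Pde2a, whose product is stimulated by cyclic GMP, rose to 9.57 ± 0.98 CPM in INS-SMA, against 5.62 ± 0.45 CPM in INS-MOCK (SD, n = 3; 0.77, adjusted p = 8.28e-03), a call that was lost in its most abundant row (adjusted p = 0.391). Pde10a, another enzyme for both nucleotides, was at 8.21 ± 2.34 CPM in INS-SMA and 8.58 ± 2.97 CPM in INS-MOCK and did not pass.

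The PDE4 and PDE7 enzymes act on cyclic AMP alone. Pde4b was at 9.19, 9.73 and 27.9 CPM in INS-SMA and at 1.40, 5.60 and 3.46 CPM in INS-MOCK (log2 fold change 2.16, SE 0.69, edgeR adjusted p = 0.0426). INS-SMA replicate 3 was far above the rest, and the log2 fold change without it was 1.44 (adjusted p = 0.109). The call was held only when INS-MOCK replicate 2 was left out (0.0425) and lost without any other library (0.051 to 0.109), as well as in the most abundant row (0.0978) and with no low-count filter (0.0529). Pde4a rose with an adjusted p of 0.0486, at 5.41 ± 1.58 CPM in INS-SMA and 2.80 ± 0.65 CPM in INS-MOCK. Without INS-SMA replicate 2 or 3 or INS-MOCK replicate 1 or 2 its adjusted p was 0.12 to 0.134. Pde4a has 1 transcript row, so its own counts stayed the same when all genes were refitted on their most abundant rows (adjusted p = 0.0546). Dropping the low-count filter gave an adjusted p of 0.0721, and removing mitochondrial genes gave 0.0502. Pde4c (0.50, adjusted p = 0.549) and Pde4d (0.54, adjusted p = 0.169) did not pass.

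The PDE7 pair moved in opposite directions. Pde7a was at 10.2, 6.79 and 5.48 CPM in INS-SMA and at 12.3, 26.4 and 22.8 CPM in INS-MOCK (log2 fold change -1.45, SE 0.38, edgeR adjusted p = 0.0204). The groups did not overlap, but the lowest INS-MOCK library was near the highest INS-SMA library. The adjusted p of Pde7a was 0.0608 to 0.0681 without INS-SMA replicate 2 or 3 or INS-MOCK replicate 2 or 3. Pde7b rose to 2.55 ± 0.59 CPM in INS-SMA, against 0.587 ± 0.212 CPM in INS-MOCK (2.10, adjusted p = 5.35e-03), and held under every alternative. The high-affinity cyclic AMP enzymes Pde8a (-0.22, adjusted p = 0.288) and Pde8b (-0.62, adjusted p = 0.716) did not pass.

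Of the enzymes for cyclic GMP, Pde5a, the target of sildenafil, fell to 0.841, 0.505 and 0.894 CPM in INS-SMA, against 2.64, 5.15 and 3.08 CPM in INS-MOCK (log2 fold change -2.27, SE 0.39, edgeR adjusted p = 4.33e-03). Pde9a was at 17.4, 4.36 and 5.83 CPM in INS-SMA and at 8.05, 8.52 and 8.42 CPM in INS-MOCK and did not pass (0.14, adjusted p = 0.853). With INS-SMA replicate 1 left out, Pde9a was lower in INS-SMA (-0.71, adjusted p = 0.041). A further 3 symbols carry the Pde name without such an activity. Pde12, a mitochondrial exonuclease that also degrades antiviral oligoadenylates, rose to 82.7, 77.5 and 82.6 CPM in INS-SMA, against 48.9, 49.0 and 48.3 CPM in INS-MOCK (0.73, SE 0.05, adjusted p = 9.13e-05). Pde6d, which carries prenylated proteins (0.06, adjusted p = 0.831), and Pde4dip, the centrosome and Golgi protein myomegalin (2.48, adjusted p = 0.128), did not pass. Pde4dip was at 0.901, 3.40 and 0.778 CPM in INS-SMA and at 0.578, 0.314 and 0 CPM in INS-MOCK. It passed in DESeq2's test (2.53, adjusted p = 0.0372). All 74 counts of INS-SMA replicate 2 lay in a row with 0 counts in every other library.

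Adenylyl cyclases were mixed, with 2 of 8 tested genes higher, 1 lower and 5 not past the threshold. The shares over all tested genes were 28.1% higher and 27% lower. Adcy5, a cyclase inhibited by calcium, rose to 64.2, 64.0 and 69.8 CPM in INS-SMA, against 43.1, 42.8 and 42.0 CPM in INS-MOCK (log2 fold change 0.63, SE 0.06, edgeR adjusted p = 3.14e-04). Adcy1, which calcium and calmodulin activate, fell to 53.5, 50.9 and 52.4 CPM in INS-SMA, against 63.3, 66.4 and 69.2 CPM in INS-MOCK (-0.34, SE 0.06, adjusted p = 3.28e-03). Libraries of a group were close together for both genes, and both calls held under every alternative.

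Adcy8 is also a calmodulin-activated cyclase and is known in beta cells for its part in the response to glucose and incretins. It was at 12.1, 11.4 and 10.1 CPM in INS-SMA and at 13.8, 13.8 and 16.5 CPM in INS-MOCK. Its groups did not overlap, but it missed the threshold (log2 fold change -0.39, SE 0.14, edgeR adjusted p = 0.0575; 0.027 with DESeq2, and between 0.027 and 0.184 in the alternatives run). Adcy9 was also without overlap at 34.9 ± 1.86 CPM in INS-SMA and 40.8 ± 3.33 CPM in INS-MOCK (-0.23, adjusted p = 0.0753). Adcy6, a close relative of Adcy5 with the most counts of any cyclase here, varied too much to compare, at 158, 419 and 96.6 CPM in INS-SMA and at 99.5, 245 and 207 CPM in INS-MOCK (0.29, adjusted p = 0.729; -0.53 without INS-SMA replicate 2).

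Adcy2, a cyclase of brain and muscle, was called higher on few counts, 18, 11 and 13 in INS-SMA against 4, 0 and 0 in INS-MOCK (log2 fold change 3.48, SE 1.09, edgeR adjusted p = 0.0394). All 4 INS-MOCK counts were in replicate 1, without which the log2 fold change was 6.94. The adjusted p was 0.0689 to 0.101 without any other library, and dropping the low-count filter gave 0.0676. Adcy2 has 1 transcript row, so its own counts stayed the same when all genes were refitted on their most abundant rows (adjusted p = 0.0522). Adcy3, in which an antisense gene (Cenpo) overlaps and strand-aware counting is not stated, was at 0 to 1.59 CPM in INS-SMA and 0.206 to 4.06 CPM in INS-MOCK (-1.12, adjusted p = 0.562). The soluble cyclase gene Adcy10 was under 1 CPM in all libraries (0.79, adjusted p = 0.243).

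**Figure D3:**
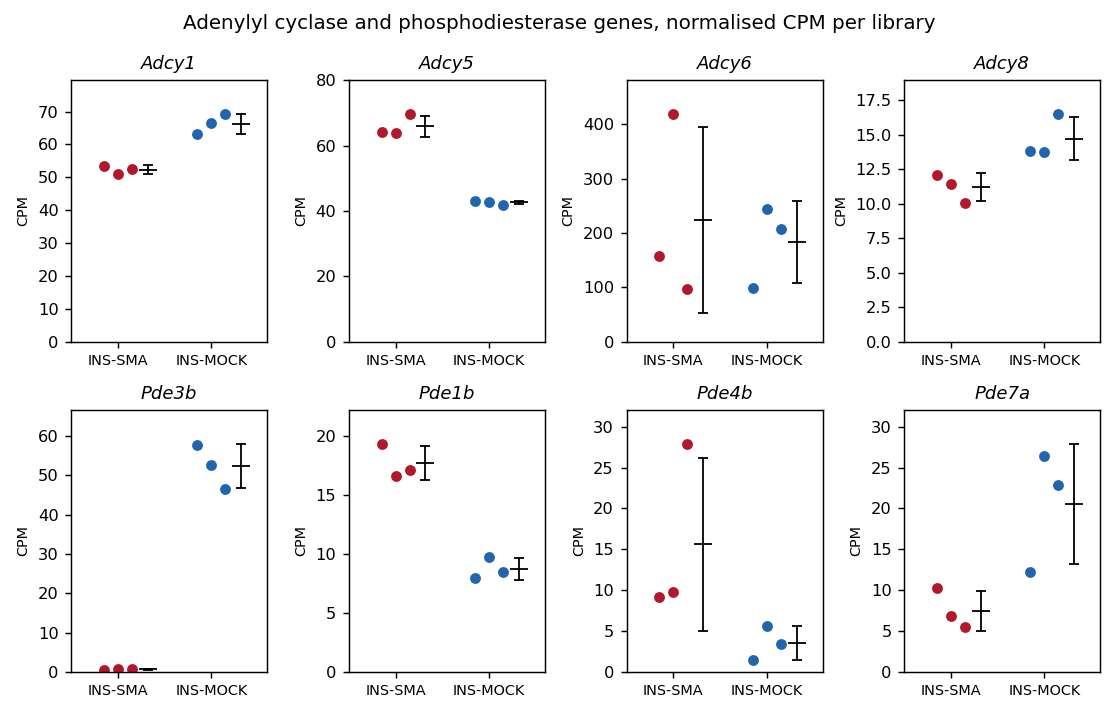
Normalised CPM (y axis, from 0) of 4 adenylyl cyclase genes (top) and 4 phosphodiesterase genes (bottom) in each library, INS-SMA left and INS-MOCK right, with mean and SD (n = 3) in black. Pde3b is near 0 in all INS-SMA libraries, and Adcy6 overlaps between groups.

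Anchoring proteins, which tether PKA near its substrates, changed in both directions, with 6 of 13 tested genes called higher, 1 lower and 6 not past the threshold. Their share of calls, 53.8%, was close to the 55.1% over all tested genes (28.1% higher and 27% lower). Akap10, which binds both classes of regulatory subunit, rose to 74.5, 73.7 and 70.2 CPM in INS-SMA, against 44.6, 44.7 and 37.2 CPM in INS-MOCK (log2 fold change 0.79, SE 0.09, edgeR adjusted p = 7.41e-04). Akap17a, which also acts in splicing, rose to 71.0, 90.4 and 79.3 CPM in INS-SMA, against 49.2, 47.8 and 43.8 CPM in INS-MOCK (0.77, SE 0.10, adjusted p = 1.58e-03). Akap12 (gravin), a scaffold for PKA, protein kinase C and adrenergic receptors, rose to 97.2, 102 and 116 CPM in INS-SMA, against 62.4, 34.0 and 33.0 CPM in INS-MOCK (1.29, SE 0.28, adjusted p = 9.97e-03). In all of these the lowest INS-SMA library was above the highest INS-MOCK library.

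Akap1, an anchor of the outer mitochondrial membrane, changed little, at 147, 150.3 and 159 CPM in INS-SMA and 139, 138 and 139 CPM in INS-MOCK (log2 fold change 0.14, SE 0.04, edgeR adjusted p = 0.0281). Its adjusted p was 0.0526 to 0.0756 without INS-SMA replicate 2 or 3 and with no low-count filter. A pair of anchors with low counts was also higher. Akap2 had 169, 69 and 106 counts in INS-SMA and 2, 0 and 7 in INS-MOCK (5.44, SE 1.12, adjusted p = 8.40e-03), and its log2 fold change ranged between 4.78 (INS-SMA replicate 1 left out) and 6.93 (INS-MOCK replicate 3 left out). Its most abundant row alone held 164, 60 and 101 counts in INS-SMA and 0 in each INS-MOCK library, where the fitted value of 9.98 depends on the prior count. Akap3, an anchor of the sperm tail, was at 2.66 ± 0.54 CPM in INS-SMA and 0.628 ± 0.183 CPM in INS-MOCK (2.07, adjusted p = 3.12e-03).

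Akap8, a nuclear anchor, was the member of this family that fell, at 44.8, 77.7 and 43.5 CPM in INS-SMA, against 119, 129.7 and 81.2 CPM in INS-MOCK (log2 fold change -0.99, SE 0.30, edgeR adjusted p = 0.0343). Its interval overlaps that of Akap8l on the same strand, so how reads were split between this pair is uncertain. Akap8l was at 0, 47.6 and 0 CPM in INS-SMA and at 9.58, 13.2 and 0 CPM in INS-MOCK and did not pass (1.06, adjusted p = 0.77; -10.42 without INS-SMA replicate 2). The adjusted p of Akap8 was 0.0897 to 0.1 without INS-SMA replicate 1 or 3 or INS-MOCK replicate 1 or 2, and 0.056 when refitted on the most abundant rows.

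Akap11, Akap6 and Akap8l differed so much within groups that no comparison could be drawn. Akap11, known in other cells as the receptor that sends type I regulatory subunits to autophagy, was at 193, 228 and 35.7 CPM in INS-SMA and at 26.1, 25.5 and 118 CPM in INS-MOCK (log2 fold change 1.43, edgeR adjusted p = 0.246). Akap6, the anchor of the nuclear envelope in muscle, was at 0, 0 and 5.83 CPM in INS-SMA and at 4.46, 20.8 and 19.7 CPM in INS-MOCK (-2.92, adjusted p = 0.264). It passed without INS-SMA replicate 3, which held all of its counts in that group (adjusted p = 0.0104). Akap5, the anchor that joins PKA to calcineurin at the membrane (-0.21, adjusted p = 0.714), Akap13 (0.03, adjusted p = 0.975) and Akap17b (0.01, adjusted p = 0.952) did not pass.

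Of the 62 genes 30 were summed from several transcript rows, and the share of each row varied between libraries. The first row of Akap10 held 1024, 939 and 676 counts in INS-SMA and 1075, 983 and 811 in INS-MOCK. On that row alone its log2 fold change was 0.15 (edgeR adjusted p = 0.756), so the call depends on the other rows. The second row held 63, 259 and 1020 counts in INS-SMA and 0, 0 and 59 in INS-MOCK. For Akap11 the row with the most counts held 3196, 4896 and 436 counts in INS-SMA and 281, 265 and 2714 in INS-MOCK, and the same libraries were high in the sum. The next Akap11 row ran the other way, with 20, 53 and 383 counts in INS-SMA and 304, 215 and 31 in INS-MOCK. Counts of Akap11 thus shifted between rows as well as in their sum. Akap3 (adjusted p = 0.504) and Akap12 (2.25, adjusted p = 0.0952) also lost their call in the most abundant row. Among members with a mean of at least 10 CPM in either group, 6 of 33 (18.2%) had a 3-fold or larger gap between libraries of 1 group, as had 12.1% of the 8593 tested genes at that level. These 6 were Akap6, Akap8l, Akap11, Adcy6, Pde4b and Prkar1b.

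**Figure D4:**
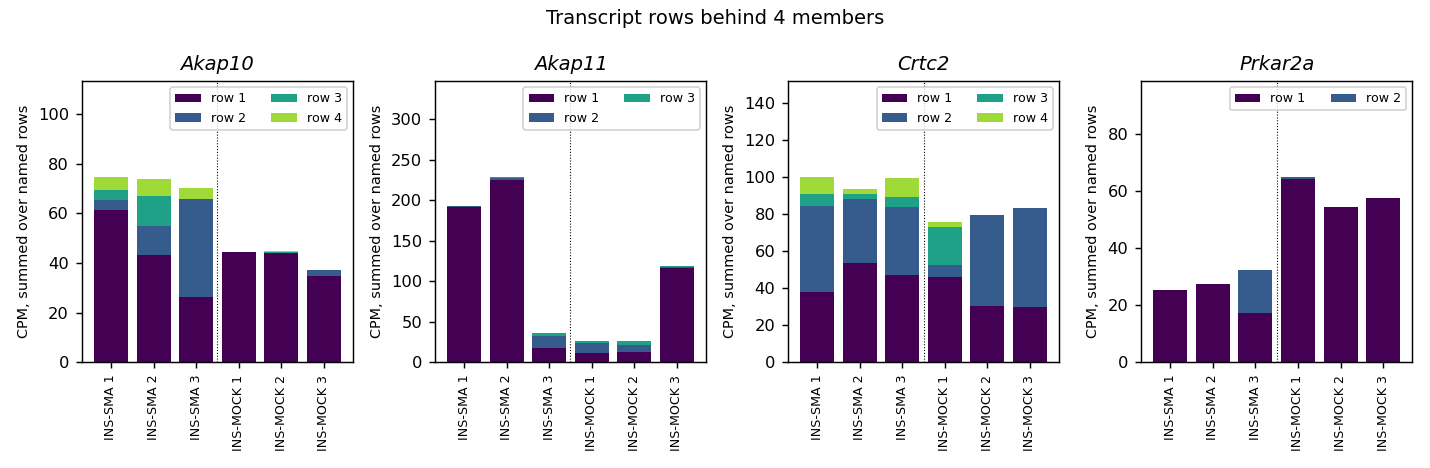
Normalised CPM of the named transcript rows (stacked colours, row 1 has the most counts over all libraries) of 4 members in the INS-SMA libraries (left of the dotted line) and the INS-MOCK libraries (right). The summed bar of Akap10 is higher in INS-SMA and that of Prkar2a lower, while Akap11 is high in INS-SMA replicates 1 and 2 and in INS-MOCK replicate 3.

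In the transcriptional arm, of 6 tested CREB and CRTC genes 4 rose and 1 fell, beside 28.1% and 27% of all tested genes. Crtc1, a coactivator that moves to the nucleus when dephosphorylated, rose to 94.4, 89.5 and 88.2 CPM in INS-SMA, against 67.0, 62.9 and 54.7 CPM in INS-MOCK (log2 fold change 0.56, SE 0.09, edgeR adjusted p = 2.60e-03). Crtc2, the coactivator best studied in beta cells and liver, rose to 99.6, 93.6 and 99.4 CPM in INS-SMA, against 75.5, 79.4 and 83.3 CPM in INS-MOCK (0.30, SE 0.05, adjusted p = 5.35e-03), and lost the call in its most abundant row (0.45, adjusted p = 0.179). Libraries of a group were close together for both.

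Creb1, the factor itself, was at 12.02, 10.2 and 12.3 CPM in INS-SMA and at 6.32, 7.62 and 8.85 CPM in INS-MOCK (log2 fold change 0.60, SE 0.18, edgeR adjusted p = 0.0339). Its adjusted p was 0.0771 to 0.0921 without INS-SMA replicate 1 or 3 or INS-MOCK replicate 1 or 2, and 0.057 with no low-count filter. Creb5, a related factor, rose to 3.00 ± 1.31 CPM in INS-SMA, against 0.644 ± 0.151 CPM in INS-MOCK (2.21, adjusted p = 8.54e-03). Creb3, a factor held in the endoplasmic reticulum membrane and not a PKA target in the way of Creb1, fell to 74.7, 80.5 and 82.1 CPM in INS-SMA, against 103, 103 and 105 CPM in INS-MOCK (-0.39, SE 0.05, adjusted p = 1.19e-03). It overlaps Gba2 and Tln1 on the opposite strand, and reads from them cannot be told apart if strand was not used in counting. Crtc3 was at 7.15, 4.13 and 6.84 CPM in INS-SMA and at 16.2, 11.3 and 6.20 CPM in INS-MOCK and did not pass (-0.89, adjusted p = 0.123), although it did without INS-MOCK replicate 3 (-1.17, adjusted p = 0.041).

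Among the exchange factors 2 of 6 rose and 2 fell, beside 28.1% and 27% of all tested genes. Rapgef3, which encodes EPAC1, rose to 3.36, 4.54 and 4.04 CPM in INS-SMA, against 1.36, 0.493 and 1.03 CPM in INS-MOCK (log2 fold change 2.04, SE 0.41, edgeR adjusted p = 8.04e-03). Its most abundant row did not pass (0.61, adjusted p = 0.538), and the other 3 of its 4 rows had counts in INS-SMA libraries only. Rapgef4, which encodes EPAC2, the form that acts in insulin granule release, was at 4.63, 8.17 and 9.99 CPM in INS-SMA and at 6.07, 5.83 and 8.55 CPM in INS-MOCK and did not pass (0.16, SE 0.34, adjusted p = 0.726).

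The remaining exchange factors act on Rap proteins and are not classed as EPACs. Rapgef2 fell to 45.2, 48.0 and 45.7 CPM in INS-SMA, against 65.0, 69.7 and 68.3 CPM in INS-MOCK (log2 fold change -0.55, SE 0.06, edgeR adjusted p = 4.69e-04; -1.24 in its most abundant row, adjusted p = 0.122). Rapgef5 was at 29.4, 27.7 and 30.8 CPM in INS-SMA and at 8.88, 19.9 and 9.92 CPM in INS-MOCK (1.19, SE 0.33, adjusted p = 0.0269). INS-MOCK replicate 2 stood between the others and INS-SMA, and the adjusted p was 0.0595 to 0.0759 without any library but that one. Rapgef6 fell to 4.71 ± 0.24 CPM in INS-SMA, against 7.93 ± 1.02 CPM in INS-MOCK (-0.75, adjusted p = 0.0114). Rapgef1 did not pass (-0.22, adjusted p = 0.753).

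Around these genes, the rest of the pathway was examined with 4 lists of genes that are not members. Of 12 tested G protein genes 3 rose and 4 fell, beside 28.1% and 27% of all tested genes. Their median log2 fold change was -0.10. Gnas, which encodes the stimulatory alpha subunit, fell to 551 ± 33.8 CPM in INS-SMA, against 1769 ± 86.3 CPM in INS-MOCK (-1.68, SE 0.06, edgeR adjusted p = 1.47e-05). Gnai2, an inhibitory alpha subunit gene, fell to 291 ± 13.5 CPM in INS-SMA, against 711 ± 6.65 CPM in INS-MOCK (-1.29). Gng2, a gamma subunit gene, rose to 24.1 ± 2.28 CPM in INS-SMA, against 4.75 ± 0.72 CPM in INS-MOCK (2.34), and Ric8a, which encodes a chaperone of inhibitory alpha subunits, rose by 1.16 on the log2 scale.

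Of 18 tested receptor genes 7 rose and 3 fell (median 0.57), beside 28.1% and 27% of all tested genes. Adra2a, the adrenergic receptor that lowers cyclic AMP in beta cells, fell to 48.3 ± 1.47 CPM in INS-SMA, against 228 ± 5.48 CPM in INS-MOCK (log2 fold change -2.24, SE 0.04, edgeR adjusted p = 3.56e-06). Gpr119, a lipid receptor that raises cyclic AMP, fell by 4.26 on the log2 scale, with 0.148 ± 0.075 CPM in INS-SMA and 3.00 ± 0.63 CPM in INS-MOCK. The inhibitory somatostatin receptor gene Sstr3 (1.27) and the stimulatory adenosine receptor gene Adora2b (2.01) rose. The incretin receptor genes, named after their values were seen, did not pass. Gipr was at 149 ± 2.22 CPM in INS-SMA and 163 ± 9.67 CPM in INS-MOCK (-0.13, adjusted p = 0.0703; 0.0445 with upper-quartile factors and 0.0404 without mitochondrial genes), and Glp1r at 4.96 ± 2.12 CPM in INS-SMA and 11.8 ± 9.58 CPM in INS-MOCK (-1.25, adjusted p = 0.17).

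Of 15 tested regulators of PKA, EPAC and CREB 2 rose and 5 fell (median -0.15). Crem, which encodes activators and the cyclic AMP-induced repressor ICER, fell to 6.53 ± 0.94 CPM in INS-SMA, against 23.5 ± 2.01 CPM in INS-MOCK (log2 fold change -1.85, SE 0.16, edgeR adjusted p = 2.38e-04). Cap1, whose yeast counterpart binds actin and adenylyl cyclase, fell by 0.89 on the log2 scale. The CREB-binding coactivator gene Crebbp (0.57) and Sik3, a gene of a kinase family that phosphorylates CRTC proteins (0.89), rose. Of 14 tested CREB target genes 6 rose and 1 fell (median 0.59). Egr1 rose to 214 ± 11.2 CPM in INS-SMA, against 31.1 ± 1.10 CPM in INS-MOCK (2.78, SE 0.06, adjusted p = 4.09e-06), and Junb (2.66) and Bdnf (2.20) rose too. Irs2, a target that carries insulin signalling in beta cells, fell to 535 ± 16.3 CPM in INS-SMA, against 974 ± 21.6 CPM in INS-MOCK (-0.86, adjusted p = 2.01e-05). Several of these targets also answer to other pathways. The calls in these lists, 31 of 59 tested genes, stand beside the 55.1% of all genes (28.1% higher and 27% lower).

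**Figure D5:**
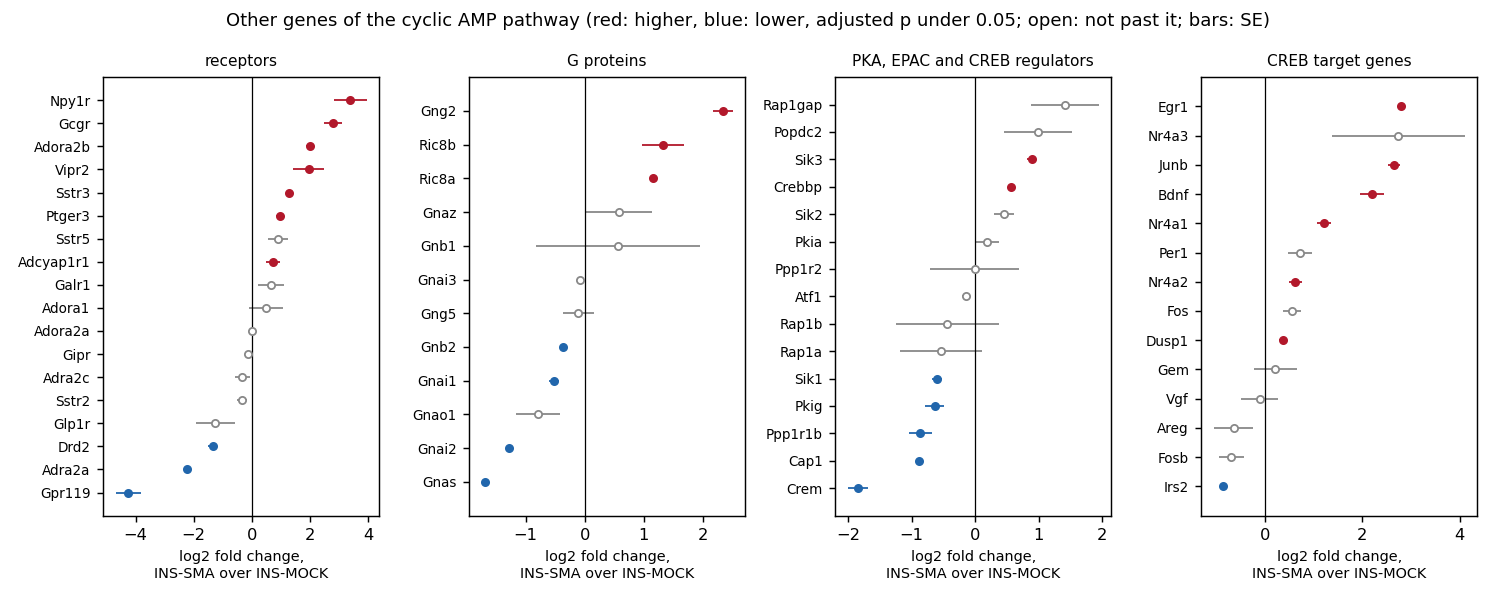
Log2 fold changes (x axis, INS-SMA over INS-MOCK, bars are SE) of tested genes in the 4 lists of other cyclic AMP pathway genes. Red points rose and blue points fell at an adjusted p under 0.05, and open points did not pass; Gnas (-1.68), Adra2a (-2.24) and Crem (-1.85) lie on the left and Egr1 (2.78) on the right.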

How the data were processed

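RNA was sequenced from 6 INS-1 libraries. The values are raw counts as the authors deposited them, in 1 table of transcript rows by library. Per the submitters' processing notes, the tools are HISAT2, HISAT and DESeq2 and the builds hg19 and rn6, without roles. How reads were counted, and with which strand setting, is not given in the sources used here. Of 101905 rows 66301 name no gene, and these entered neither library sizes nor tests.

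Counts were summed per gene. Genes were filtered with filterByExpr, scaled with TMM factors and compared with edgeR 4.0.16's quasi-likelihood F-test (R 4.3.3) on all 6 libraries. P-values were Benjamini-Hochberg adjusted over 13363 genes (threshold 0.05). The SE is the size of the log2 fold change over the square root of F, and CPM uses TMM-scaled library sizes; tested genes held 15851326 to 25075476 counts per library. With 3 libraries a group, p-values set a gene's group difference against the spread between these libraries only. That spread was estimated with information shared across genes. The fit was tested on simulated data; a gene that did not pass is not shown to be unchanged. Alternatives were DESeq2's size factors and test, other scaling factors, other filters, the most abundant row of a gene, library sizes with unnamed rows or without ACTA2 or mitochondrial genes, a replicate block, and leaving out each library. Counts of replicates differed beyond sampling noise, with chi-square values over their degrees of freedom of 45.0 to 58.6.

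Per-library values were given for called members with a mean of at least 10 CPM, at most 6 a role, and for the member with the most counts in each role; called members changed at least 2-fold and the 4 list genes with the smallest adjusted p were also named. Other per-library values were added after they were seen. Levels are not compared between genes, since row lengths are not in the table. The members and lists were chosen with earlier results of these data known.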

Additional observations from a re-analysis of the deposited data

How the results depend on the processing

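Among the 59 tested members 20 were higher and 12 lower, and 31 pathway-list genes were called. In the most abundant row, 11 were higher and 10 lower. DESeq2 called 21 and 13. With no low-count filter the counts were 15 and 12. With 1 library left out they were 14 to 17 higher and 10 to 12 lower, and 28 to 32 list genes. Over all genes 7359 were called in the main fit, 5821 in the most abundant row, 8314 with DESeq2 and 7341 with no low-count filter. The range with 1 library left out was 6712 to 6927 genes, and the replicate block gave 6294. Of the 32 called members 16 kept their call in all 17 alternatives run and 0 changed sign. Replicate numbers do not pair the libraries (correlation of deviations -0.03, -0.01 and -0.03), and with the replicate block 15 members were higher and 10 lower, with Akap8l at -1.77 and Pde9a at -0.14. The 7 calls lost under the block were those of Adcy2, Akap1, Creb1, Pde4a, Pde4b, Pde7a and Rapgef6, with adjusted p-values of 0.0537 to 0.0841 in edgeR's test (0.0563 for Rapgef6).

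Sign changes of log2 fold change were met in 13 members that did not pass. Pde10a was 0.034 with no normalization factors. Akap17b was -0.011 with upper-quartile factors, -0.022 without mitochondrial genes and -0.19 in the most abundant row. Akap13 was -0.012 without mitochondrial genes, and Pde6d was -0.11 in the most abundant row. With 1 library left out, ranges were -0.53 to 0.65 for Adcy6, -0.40 to 0.56 for Akap13, -0.080 to 0.11 for Akap17b, -0.54 to 0.11 for Akap5 and -10.42 to 1.72 for Akap8l. They were -0.28 to 0.27 for Pde10a, -0.34 to 0.90 for Pde4c, -0.14 to 0.22 for Pde6d, -0.71 to 0.48 for Pde9a and -0.83 to 0.37 for Prkacb. They were -0.71 to 0.050 for Prkar1b, -0.71 to 0.082 for Rapgef1 and -0.09 to 0.41 for Rapgef4. The cause was not tested. Adding unnamed rows that overlap a gene was not run, since those rows carry no coordinates. With 4, 0 and 0 counts for Adcy2 and 2, 0 and 7 for Akap2 in INS-MOCK, the sizes of these changes rest on few counts.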

Other observations

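The 3 members under the low-count filter had uneven counts. Akap9, an anchor of the centrosome and Golgi, had 0, 269 and 0 counts in INS-SMA and 0 in each INS-MOCK library. Akap7 had 10, 0 and 8 counts in INS-SMA and 0 in each INS-MOCK library. Pde6a, a photoreceptor enzyme, had 0, 4 and 8 counts in INS-SMA and 0, 0 and 2 in INS-MOCK.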
